A study of Mus musculus with 12 samples.

Results

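The first and the second response of mouse macrophages to lipopolysaccharide (LPS) were compared gene by gene, as the difference between the change caused by LPS in cells that had been pretreated with it and the change in cells that had not. The comparison used 12 of 12 arrays and 18193 genes, each measured by a probe set with 1 gene symbol. All cells were C57Bl/6 bone marrow cells differentiated in macrophage colony-stimulating factor (M-CSF), and the 3 arrays of a group, lettered A, B and C, are biological replicates per the labels. The 4 groups were untreated (no LPS at either step), LPS once (none for 18 h, then 100 ng/ml), pretreated (100 ng/ml LPS for 18 h, then none) and restimulated (100 ng/ml at both steps). New medium and 2 h of rest lay between the steps in every group, and how long the last step lasted is not stated in the labels. The first response is LPS once minus untreated, the second response is restimulated minus pretreated, and the interaction is the second response minus the first.

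LPS, which Gram-negative bacteria carry in their outer membrane, is sensed by Toll-like receptor 4, which signals through the adaptors MyD88 and TRIF. MyD88 leads to NF-kappaB, MAP kinases and early inflammatory genes, and TRIF to interferon beta, whose receptor then induces antiviral genes through STAT factors. Macrophages that have met LPS respond to it differently the next time, a state called endotoxin tolerance, in which some genes are induced less and others are induced again. The design addresses which genes fall on either side.

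Values are array intensities, and all differences are log2 differences of intensity + 16 with their standard error (SE). The + 16 makes changes of dim genes look smaller than they were. A gene was called at a limma adjusted p under 0.05 over all genes and a difference of at least 2-fold, and all adjusted p-values are from the same limma fit, which holds the replicate letter as a block. In bulk RNA, fewer cells of a kind and less RNA per cell cannot be told apart. The restimulated replicate C array was dim, with a mean intensity of 246.7 against 310.0 to 317.0 on the other 11, and a median log2 difference of -0.52 from the other restimulated arrays over 6228 genes of mid-range intensity. Highest intensities were between 15230 and 16569 on the 12 arrays. The macrophage genes Csf1r, the receptor of M-CSF, and Lyz2, lysozyme, had intensities of 11889, 11971 and 12139 and of 15134, 16140.3 and 15215 in untreated cells A, B and C, and both were chosen as checks after the values were seen. Of 21 measured macrophage identity genes, 1 had an interaction called above 0 and 1 below it (4.76% each, against 1.43% and 1.86% of all genes). In the first response 1 of the 21 was called higher and 5 lower, against 4.18% and 9.25% of all genes.

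Most responses that differed were smaller the second time, for induced and for repressed genes alike. Il10, Il12b, Edn1 and Rnd1 lost nearly all of their induction, Saa3, Ccl5 and Lcn2 were already at or above their induced level before LPS was added again, and Tnf and Ccl3 were induced strongly both times. Among genes that LPS lowers, Sesn1 and Gpr65 were lowered far less in pretreated cells. The interaction was above 0 in 260 genes (1.43% of those tested) and below 0 in 338 (1.86%). In each of these 598 genes it had the same sign in all 3 replicate letters, against 7799 of all 18193 genes. The call rests on the same 3 letters, so this agreement is close to given by the call.

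The first response raised 761 genes (4.18%) and lowered 1683 (9.25%), while the second raised 141 (0.775%) and lowered 270 (1.48%). Of the 761 induced genes, 324 (42.6%) had a second response called smaller. Their median response went from 2.21 to 0.16, and 279 of them were not called induced in the second response, while 45 were. For the other 437 induced genes the difference was not called, with medians of 1.48 and 0.56. Of the 1683 repressed genes, 253 (15.03%) had a second response called smaller, with medians of -2.07 and -0.69, and 54 of these were called lower again. In 0 induced genes and 0 repressed genes was the second response called larger by limma, and 0 genes were called in opposite directions in the 2 responses. Because the first response enters the interaction, genes chosen for a large first response tend towards a smaller second one, and these shares are a description.

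**Figure D1:**
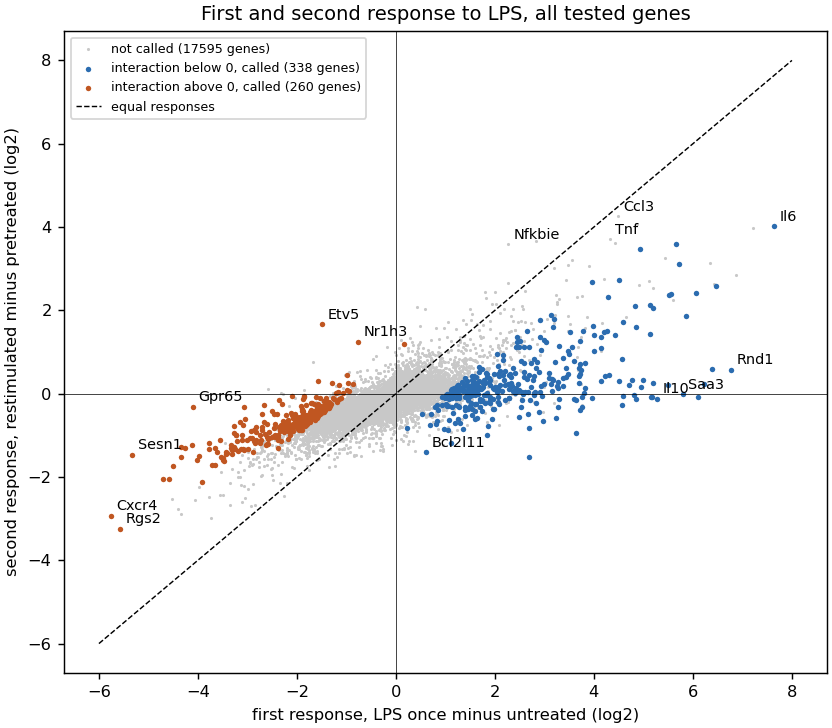
The first response (x axis, LPS once minus untreated) against the second (y axis, restimulated minus pretreated), both in log2 units, for 18193 genes. Points below the dashed line of equal responses on the right are induced genes with a smaller second response. The 338 genes called below 0 (blue) and the 260 called above 0 (orange) spread along the horizontal axis, while Ccl3 and Tnf lie near the line.

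Few genes had a second response called in the direction of their interaction. Nr1h3, which encodes liver X receptor alpha, had intensities of 259.8, 188 and 299.7 on the pretreated arrays A, B and C and of 1010.0, 386 and 563 on the restimulated arrays. Each restimulated array was above every pretreated array. It rose by 1.25 ± 0.21 in the second response after a first response of -0.77 ± 0.21, which had a limma adjusted p of 0.0229 and was under the 2-fold minimum, giving an interaction of 2.02 ± 0.30 (limma adjusted p = 0.0126). Ppm1n, a protein phosphatase of the PPM family, had responses of 0.17 and 1.18 and an interaction of 1.01, with a call lost without untreated A, B or C, LPS once B or C, pretreated A, B or C, or restimulated A or C (adjusted p up to 0.091). Bcl2l11, which encodes the death-promoting protein Bim, went from 0.60 to -1.41, the only gene with a called interaction below 0 that was called lower in the second response. Its call was lost without untreated A, B or C, LPS once B or C, pretreated C, or restimulated A (adjusted p up to 0.0723). Gdf3, Gspt2, Mid1ip1, Tk1 and Tle1 had an interaction above 0 with neither response called, and a further 13 genes had one below 0 with neither called. Each of those 5 lost its call without at least 2 of the arrays, Gspt2 and Tk1 without 11 of 12, and Gdf3 and Tk1 also without restimulated C. The 2 probe sets of Gdf3 had 0.23 and 1.11, those of Gspt2 0.12 and 1.23, and those of Tle1 1.07 and 2.215. Tested singly, 1 was called for Gdf3, 0 for Gspt2 and 2 for Tle1.

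Leaving out the dim array raised the number of higher calls and left the lower calls nearly as they were. Without restimulated C, 586 genes were above 0 (3.22%) and 335 below (1.84%), 254 of the 260 and 311 of the 338 were called again, and 332 and 24 were added. Genes above 0 thus made up 43.5% of all calls with this array, 63.6% without it and 59.2% with limma's array weights, which gave it a weight of 0.112. The higher count was 79, 115 and 129 without untreated C, B and A, 114 and 166 without LPS once C and B, 149 and 118 without pretreated A and B, and 157 and 109 without restimulated A and B. The lower count was 182, 192 and 207 without untreated C, B and A, 213 without LPS once C, 210 and 206 without pretreated B and C, and 224 without restimulated B. In all 12 of these fits the calls included 63 of the 260 and 151 of the 338. Without restimulated C the interaction was -5.29 for Il10, -6.31 for Rnd1, -5.76 for Saa3, -0.37 for Tnf, -0.25 for Ccl3, 3.94 for Sesn1 and 3.89 for Gpr65.

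**Figure D2:**
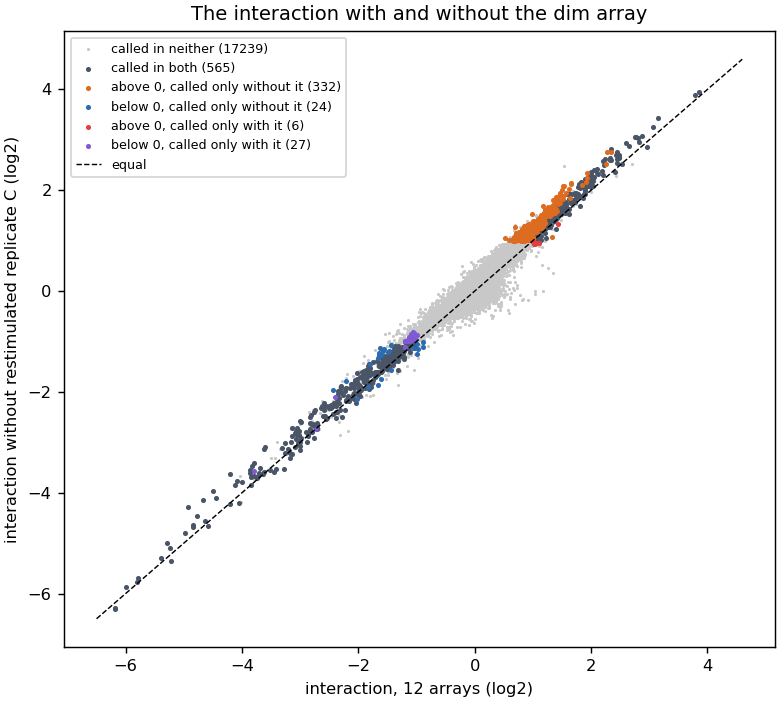
The interaction of each gene on 12 arrays (x axis) against the interaction without restimulated replicate C (y axis), in log2 units. Points follow the dashed line of equality, 565 genes were called both ways, and the 332 genes called above 0 only without the array lie around values of 1.

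Among the cytokines, which carry signals to other cells, Il10, Il12b and Edn1 were induced once and not again. Il10, an anti-inflammatory cytokine, had intensities of 53.4, 38.3 and 40.4 on the untreated arrays A, B and C and of 2206, 2545 and 2132 after LPS once. The pretreated arrays had 45.2, 19.8 and 33.7 and the restimulated arrays 40.5, 24.3 and 20.9. All 3 arrays after LPS once were high and all 9 others low, without overlap. The response went from 5.27 to -0.12, an interaction of -5.39 ± 0.24 (SE, n = 3 arrays a group, limma adjusted p = 6.79e-05).

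Il12b, the subunit shared by interleukins 12 and 23, had 10.2, 12.5 and 12.1 on untreated arrays and 632, 1380.1 and 2093 after LPS once. Pretreated arrays had 12.1, 18.5 and 11.1 and restimulated arrays 15.5, 31.5 and 10.7. Only the arrays after LPS once were high, and restimulated B was the highest of the others. The interaction was -5.29 ± 0.48 (limma adjusted p = 0.00194), with -4.46, -5.16 and -6.25 in letters A, B and C.

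Edn1, the vasoconstrictor peptide endothelin 1, had 1068, 966 and 1427 after LPS once and 31.6, 23.7 and 20.9 after restimulation, against 31.4, 36.1 and 29.1 on untreated arrays. Restimulated A lay in the range of the untreated arrays, and B and C below it. Its interaction was -4.64 ± 0.23 (limma adjusted p = 0.000112). Il1rn, the antagonist of the interleukin 1 receptor, went from a response of 4.85 to -0.13, and it was also higher in pretreated cells by 2.79, so that its interaction of -4.98 has 2 components.

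Il6, a cytokine of acute inflammation, was still induced the second time, but far less than the first. Its intensities were 11.5, 11.3 and 14.2 on untreated arrays, 4394, 5878 and 6919 after LPS once, 13.2, 76.6 and 15.3 on pretreated arrays and 282, 1829.7 and 650.4 after restimulation. Restimulated arrays were above all pretreated arrays and below all arrays of LPS once. The responses were 7.64 ± 0.48 and 4.03 ± 0.48, and the interaction was -3.62 ± 0.67 (limma adjusted p = 0.026), a call lost without untreated B or C, LPS once A or C, or pretreated A or B (adjusted p up to 0.0769).

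Il1a and Il1b, which both activate the interleukin 1 receptor, had interactions of -3.21 ± 0.82 (limma adjusted p = 0.0714) and -2.67 ± 0.96 (limma adjusted p = 0.177), neither called. In all, 10 of 29 measured cytokines and growth factors had an interaction below 0 and 0 above it, with a median of -1.85 against -0.016 over all genes. At an unadjusted p under 0.05, limma found 19 below and 0 above 0. The counts of called genes here and in the next lists stand against 1.86% below 0 and 1.43% above 0 over all genes. Those shares do not apply to the counts at an unadjusted p, for which no share over all genes is given.

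Chemokines, which guide leukocytes, were split between genes that lost their response and genes that were induced again. Of 26 measured, 6 had an interaction below 0 and 0 above it, with a median of -1.09. At an unadjusted p under 0.05 by limma, 16 were below and 0 above 0. The lower count was 2 without untreated B and 3 without untreated A, untreated C, LPS once C or restimulated B. Cxcl10, an interferon-induced chemokine of T cells, had responses of 6.46 and 2.60, both called, and an interaction of -3.87 ± 0.66 (limma adjusted p = 0.0194). That call was lost without untreated A, B or C, LPS once C, or restimulated B (adjusted p up to 0.0635). Cxcl9, with the same receptor, had 3.25 and 0.18, and the monocyte chemokine Ccl2 4.01 and 1.03. Probe sets of Cxcl9 ranged from -3.07 to -0.27. Their interactions of -3.07 and -2.98 were called in 6 of 12 and 4 of 12 fits with 1 array left out. Cxcl9 lost its call without untreated A, B or C, LPS once A, or pretreated A or B (adjusted p up to 0.0665). Ccl2 lost its call without untreated A, B or C, LPS once A or C, pretreated B or C, or restimulated B (adjusted p up to 0.0754).

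Ccl3, a chemokine of monocytes and T cells, was induced both times. Its intensities were 465, 428 and 633 on untreated arrays and 10588, 11909 and 12181 after LPS once. On pretreated arrays they were 159.9, 382 and 185 and on restimulated arrays 3667, 5416 and 4993. Both stimulated groups were far above both unstimulated ones, and pretreated and restimulated arrays were each below their counterparts without pretreatment. The intensities after LPS once were in the upper part of the scale, which limits the size of the first response. The responses were 4.48 ± 0.25 and 4.26 ± 0.25, and the interval of the interaction was -1.04 to 0.61 (95% confidence). The estimate was -0.22, and it turned to 0.14 without pretreated B and to 0.061 without untreated B.

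Tnf, the inflammatory cytokine, had intensities of 337, 283 and 394 on untreated arrays and 5586, 7702 and 8019 after LPS once. On pretreated arrays they were 123, 265 and 178 and on restimulated arrays 2241, 3719 and 2009.7. The restimulated arrays were lower than every array of LPS once, and the pretreated arrays lower than every untreated array. The responses were 4.32 ± 0.25 and 3.71 ± 0.25, and the interval of the interaction was -1.44 to 0.21. Its level after LPS differed by -1.45 ± 0.25, which was called, without a called difference between the responses.

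Ccl4, a related chemokine gene, differed from it in the call. It is the only gene with a called interaction below 0 that was called lower in pretreated cells (-1.13) and lower after LPS (-2.59), and it was picked out for this after the values were seen. Its responses were 4.93 and 3.47 and its interaction -1.46 ± 0.24 (limma adjusted p = 0.0185), whereas the estimate for Ccl3 was -0.22. It lost its call without untreated A or B, LPS once C, or restimulated B (adjusted p up to 0.0586). The difference between the 2 genes was not tested.

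For the neutrophil chemokines Cxcl1 and Cxcl2 the interaction was not called. Cxcl1 had responses of 7.22 and 3.98 and an interaction of -3.25 ± 0.94 (limma adjusted p = 0.102). Cxcl2 had 4.88 and 4.06, and its interaction was 2.03, -2.41 and -2.06 in letters A, B and C. Without pretreated B the estimate was 0.11. Its interval of -3.54 to 1.91 holds equal responses as well as a second response much smaller than the first.

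**Figure D3:**
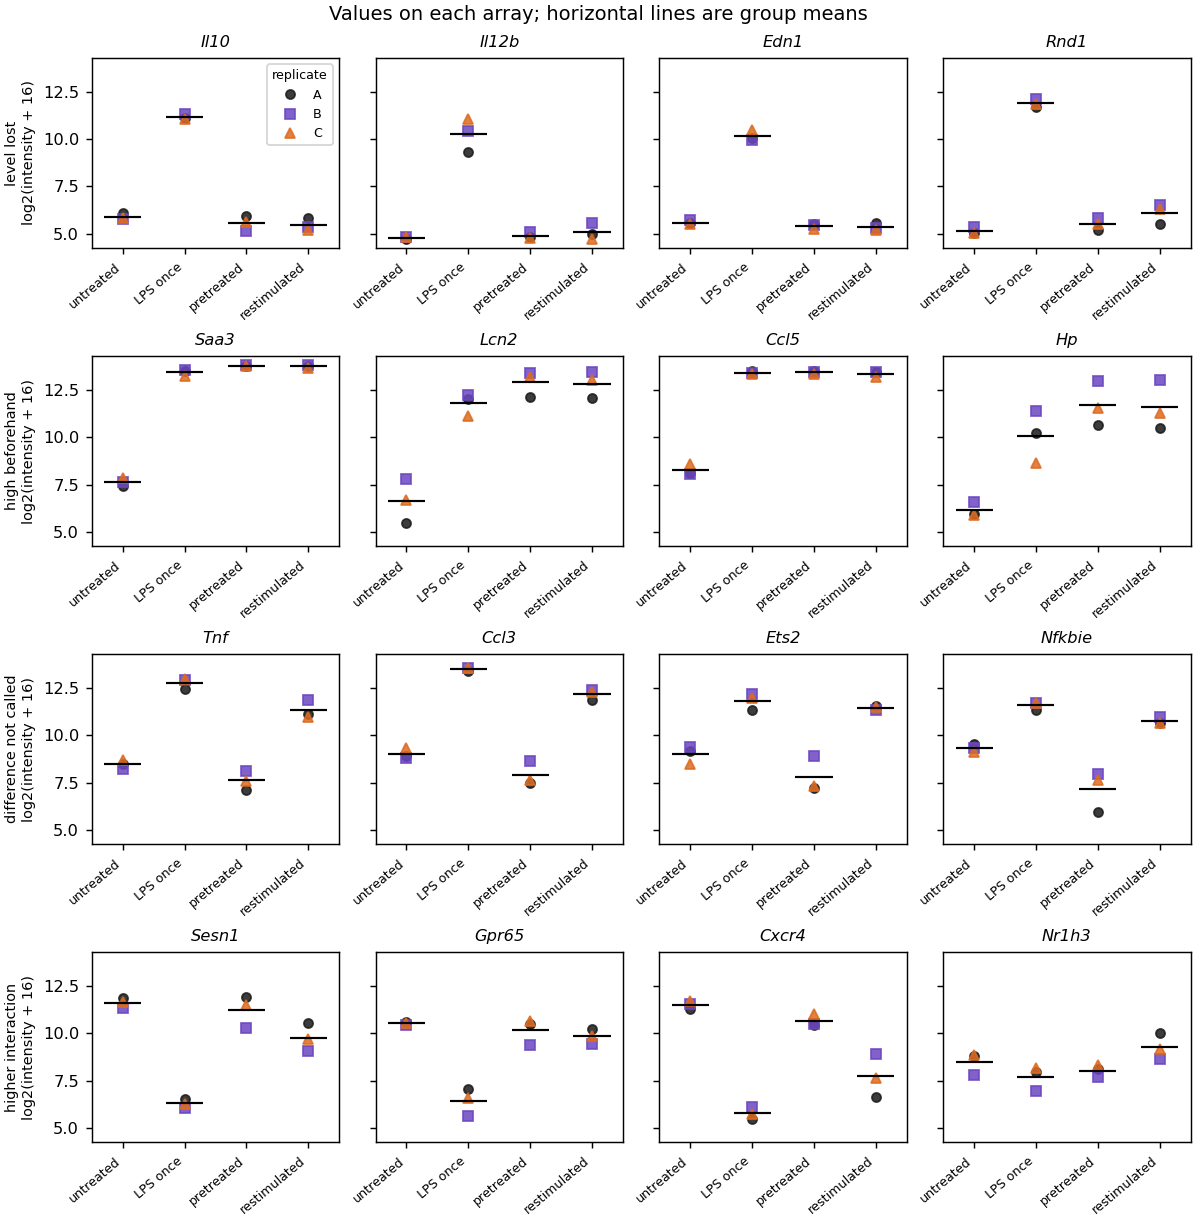
Values of 16 genes on each array, as log2(intensity + 16), in the 4 groups, with replicate letters as symbols and group means as lines. In the top row only LPS once is high, in the second row pretreated and restimulated cells are as high as LPS once or higher, in the third row both stimulated groups are high, and in the bottom row Sesn1, Gpr65 and Cxcr4 are low after LPS once and less low after restimulation.

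The promoters of the genes at both ends are shown for comparison, as the 150 bases before the start from the RefSeq promoter table of build GRCm38.p6, 5′ to 3′ on the strand of the gene. They are the 4 induced genes with an entry and the most negative called interactions, and the 4 uncalled induced genes with the highest second response. Reduced, here and in the shares below, means an induced gene whose second response was called smaller, whatever its level. U90926 and Saa3 were already high in pretreated cells, and their level after LPS did not differ by the call. Capitals mark matches, on either strand, to an NF-kappaB consensus, to the interferon-stimulated response element GAAANNGAAA, to the AP-1 motif TGANTCA and to the TATA box TATAAA. Reduced were U90926 (chr5:92215409-92215558, minus strand), Shisa3 (chr5:67607733-67607882, plus strand), the acute phase gene Saa3 (chr7:46715677-46715826, minus strand) and the collagenase gene Mmp13 (chr9:7272364-7272513, plus strand). Not called were Ccl3 (chr11:83649379-83649528, minus strand), Cxcl2 (chr5:90903749-90903898, plus strand), Cxcl1 (chr5:90891095-90891244, plus strand) and Tnf (chr17:35202008-35202157, minus strand).
U90926: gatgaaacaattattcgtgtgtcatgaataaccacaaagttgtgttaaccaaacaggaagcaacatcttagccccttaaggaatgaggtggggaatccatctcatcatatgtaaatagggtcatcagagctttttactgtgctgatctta
Shisa3: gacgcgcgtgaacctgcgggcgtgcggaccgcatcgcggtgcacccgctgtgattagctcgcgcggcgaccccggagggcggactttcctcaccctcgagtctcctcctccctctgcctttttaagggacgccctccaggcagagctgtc
Saa3: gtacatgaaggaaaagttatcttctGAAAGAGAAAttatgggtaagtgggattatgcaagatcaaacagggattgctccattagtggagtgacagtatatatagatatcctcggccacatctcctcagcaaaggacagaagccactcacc
Mmp13: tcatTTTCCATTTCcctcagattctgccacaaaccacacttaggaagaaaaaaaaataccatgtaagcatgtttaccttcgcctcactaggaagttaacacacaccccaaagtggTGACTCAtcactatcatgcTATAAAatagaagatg
Ccl3: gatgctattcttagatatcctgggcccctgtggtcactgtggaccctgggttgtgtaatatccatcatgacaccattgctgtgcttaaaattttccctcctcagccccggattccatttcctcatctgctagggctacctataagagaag
Cxcl2: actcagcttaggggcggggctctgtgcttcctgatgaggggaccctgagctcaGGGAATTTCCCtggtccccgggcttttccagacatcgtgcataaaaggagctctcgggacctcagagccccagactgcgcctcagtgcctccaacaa
Cxcl1: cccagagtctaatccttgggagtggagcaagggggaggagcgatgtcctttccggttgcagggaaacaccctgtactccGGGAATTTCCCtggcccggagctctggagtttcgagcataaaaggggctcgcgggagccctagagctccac
Tnf: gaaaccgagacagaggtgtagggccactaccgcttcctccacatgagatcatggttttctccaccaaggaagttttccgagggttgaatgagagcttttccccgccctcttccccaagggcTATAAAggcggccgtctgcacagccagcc

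In these windows the NF-kappaB consensus occurred in Cxcl1 and Cxcl2, where overlapping matches on both strands make 1 run of capitals, and the response element in Saa3 and Mmp13. The AP-1 motif was in Mmp13, and the TATA box in Mmp13 and Tnf. An entry was found for 14452 of the 18193 genes. Over the 250 bases before the start, the NF-kappaB consensus was in 22 of 254 reduced induced genes with an entry (8.66%), in 28 of 366 induced genes without a called difference (7.65%) and in 3.75% of all 27025 promoters. The response element was in 8.27% and 5.46% of these groups and in 3.04% of all promoters. It was in 8 of the 35 reduced induced genes with an entry that were also higher in pretreated cells (22.9%). The AP-1 motif was in 8.66% of the reduced and 6.01% of the uncalled induced genes, and the TATA box in 9.84% and 9.29%. Of the 35 genes also higher in pretreated cells, 6 had AP-1 (17.1%), 5 the TATA box (14.3%) and 3 the NF-kappaB consensus (8.57%). Over all 14452 tested genes with an entry the shares were 4.35% for the NF-kappaB consensus, 2.63% for the response element, 5.58% for AP-1 and 9.02% for the TATA box. AP-1 was in 6.87% and the TATA box in 3504 of all 27025 promoters, which are higher shares than among tested genes. These shares are descriptions, and a match is not a site shown to be bound.

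An interaction is also the level after LPS, taken as restimulated minus LPS once, minus the pretreatment effect (pretreated minus untreated), and the called genes differed in which component was present. Over all genes the level after LPS was higher in 486 (2.67%) and lower in 675 (3.71%), and the pretreatment effect in 100 (0.55%) and 97 (0.533%). Of the 338 genes with an interaction below 0, 249 had a lower level after LPS and no called pretreatment effect. A further 36 were higher in pretreated cells with no called difference in the level after LPS, 9 were both higher beforehand and lower afterwards, and 42 had neither component called. The other 2 were Ccl4, described above, and Cfb. The pretreatment effect was the larger component in 63 of the 338.

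**Figure D4:**
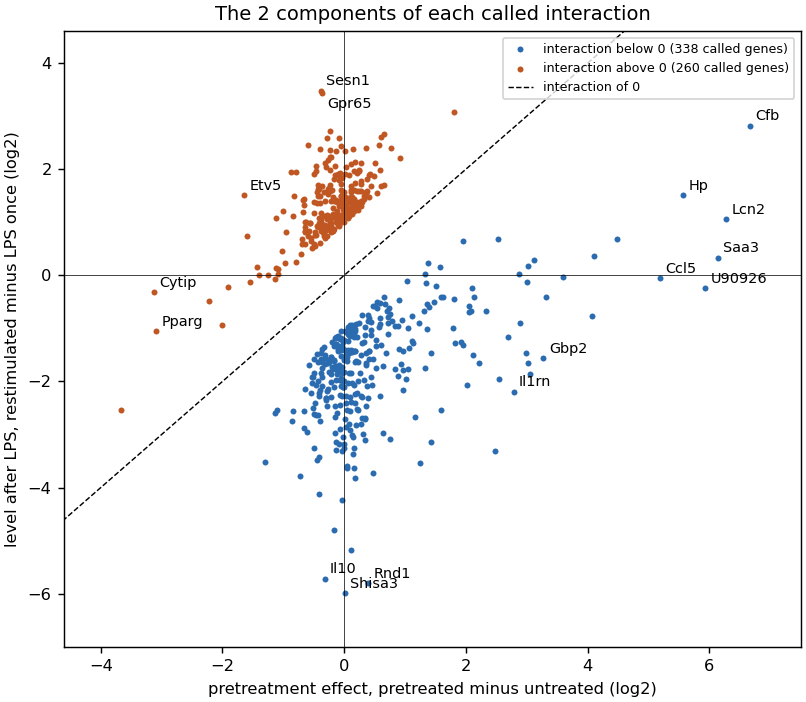
The pretreatment effect (x axis, pretreated minus untreated) against the level after LPS (y axis, restimulated minus LPS once), in log2 units, for the 598 called genes. Il10, Rnd1 and Shisa3 lie at the bottom near an x of 0, while Saa3, Lcn2, Ccl5 and U90926 lie to the right near a y of 0 and Cfb above it.

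Lost levels are seen in Rnd1, a GTPase that lowers cell adhesion. Its intensities were 17.3, 24.7 and 16.7 on untreated arrays, 3366, 4479 and 3742 after LPS once, 21.4, 42 and 29.9 on pretreated arrays and 29.7, 76.1 and 62.8 after restimulation. Restimulated B and C were somewhat above the unstimulated arrays, and all restimulated arrays were far below LPS once. The interaction was -6.19 ± 0.21 (SE, n = 3 arrays a group, limma adjusted p = 1.60e-05). Unstimulated intensities this low make the size depend on the 16 added before the log. Shisa3, a transmembrane protein gene whose family acts on Wnt and FGF receptors, went from 6.22 to 0.23, an interaction of -5.996 ± 0.21 (limma adjusted p = 1.84e-05). Mmp13, a collagenase, had 6957, 6792 and 7146 after LPS once and 411, 1683 and 463 after restimulation, with an interaction of -5.79 ± 0.68 (limma adjusted p = 0.00531).

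Several acute phase and antimicrobial genes were already high before LPS was added again. Saa3, serum amyloid A3, had 154, 186 and 214 on untreated arrays and 11678, 11824 and 9632 after LPS once. It had 13874, 14367 and 13756 on pretreated arrays and 14020.5, 14571 and 12933 after restimulation, so all 9 arrays with LPS at any step were high. The interaction was -5.81 ± 0.17 (limma adjusted p = 1.20e-05), made of a pretreatment effect of 6.14 ± 0.12 and a level after LPS of 0.33 ± 0.12. These intensities are close to the highest on the arrays.

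Ccl5, a chemokine of T cells and monocytes, had 256, 249.5 and 369.5 on untreated arrays and 11407, 10751 and 10508 after LPS once. Pretreated arrays had 11494, 11218 and 10339 and restimulated arrays 11274, 11216 and 9134. All groups with LPS overlapped each other, again in the upper part of the scale, and the interaction was -5.24 ± 0.22 (limma adjusted p = 4.82e-05).

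Lcn2, which withholds siderophore-bound iron from bacteria, had 28.6, 203 and 85.1 on untreated arrays and 4170.1, 4731 and 2206 after LPS once. Pretreated arrays had 4505, 10888 and 9319 and restimulated arrays 4226, 11346 and 8238. The letters differed by much more than for Saa3, with A lowest among pretreated cells and C lowest after LPS once. The interaction was -5.22 ± 0.57 (limma adjusted p = 0.00433), with -6.64, -4.38 and -4.64 in letters A, B and C.

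U90926, a transcript of uncertain function, had a pretreatment effect of 5.94 ± 0.39, a second response of -0.091 and an interaction of -6.18 ± 0.56 (limma adjusted p = 0.00194). Hp, haptoglobin, which binds free haemoglobin, had a pretreatment effect of 5.57 and an interaction of -4.06, lost without untreated B or C, LPS once B, or pretreated B or C (adjusted p up to 0.0586). Cfb, complement factor B, was the only gene with an interaction below 0 that was higher both in pretreated cells (6.67) and after LPS (2.82), as seen after the fact, with responses of 3.76 and -0.084. Cp, ceruloplasmin, had an interaction of -4.85, and its probe sets ranged from -5.19 to -0.46. In the list of 23 antimicrobial and acute phase genes, 6 were below 0 and 0 above it, with a median of -0.67. At an unadjusted p under 0.05 by limma, 12 were below and 2 above 0.

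Receptors of bacterial and chemotactic signals moved in several ways. Fpr2, a formyl peptide receptor, was already higher in pretreated cells (4.10), and its responses were 4.56 and 0.82, an interaction of -3.74 ± 0.31 (limma adjusted p = 0.00146). Marco, a scavenger receptor of bacteria, had a pretreatment effect of 4.97 and an interaction of -2.63 ± 0.63 (limma adjusted p = 0.0581), not called. Ccrl2, a chemerin-binding receptor, had 4.27 and 1.503, and Olr1, a receptor of oxidised low-density lipoprotein, 4.42 and 1.40, and both interactions (-2.77 and -3.02) were called. Hcar2, the receptor of nicotinate and ketone bodies, had 5.56 and 2.39, and the nucleotide receptor P2ry2 2.76 and 0.33.

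Among chemoattractant receptors above 0, Cxcr4, the receptor of Cxcl12, had intensities of 2525, 2975 and 3319 on untreated arrays and 27.8, 51.9 and 38.2 after LPS once. It had 1389, 1409.9 and 2049 on pretreated arrays and 84.4, 455 and 182 after restimulation. The restimulated arrays lay between the pretreated ones and those of LPS once, with A the lowest. It fell in both responses (-5.75 and -2.93), with an interaction of 2.83 ± 0.54 (limma adjusted p = 0.0276), lost without untreated A, B or C, LPS once A, B or C, or pretreated A, B or C (adjusted p up to 0.0835). The fractalkine receptor Cx3cr1 had an interaction of 2.34 that was called with any array left out only where this was restimulated C (1 of 12, adjusted p up to 0.122 in the others).

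Of 22 measured genes of the Toll-like receptor 4 complex and its signalling chain, 1 was called below 0 (4.5%, against 1.86% of all genes) and 0 above it. The median was -0.26 (-0.052 without restimulated C), and -0.068, -0.335 and -0.767 in letters A, B and C. At an unadjusted p under 0.05, limma placed 8 below and 1 above 0. Tlr4 itself had responses of -0.95 and -0.72 and an interval of the interaction of -0.56 to 1.03. The called gene was Map3k8, the kinase Tpl2 that activates the ERK pathway, which went from 2.10 to 0.21, an interaction of -1.88 ± 0.26 (limma adjusted p = 0.00962). Ikbkb, a kinase of the NF-kappaB inhibitors, had -0.88 ± 0.17 (limma adjusted p = 0.0297), under the 2-fold minimum.

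NF-kappaB subunits and inhibitors were divided. Rel, the c-Rel subunit, had intensities of 658, 834 and 1231 after LPS once and 145, 138 and 115 after restimulation, against 69.7, 82 and 88.9 on untreated and 57.6, 76.6 and 84.7 on pretreated arrays. Restimulated arrays were below all arrays of LPS once and above all pretreated arrays. The interaction was -2.47 ± 0.26 (limma adjusted p = 0.00387). Bcl3 and Nfkbib, both inhibitor-like nuclear or cytoplasmic partners of NF-kappaB, had -1.68 and -1.39, which made 3 of 10 genes below 0 and 0 above it. At an unadjusted p under 0.05 by limma, 3 were below and 1 above 0. The median of the list was 0.59, -0.53 and -0.76 in letters A, B and C. Only the call of Rel stood in all 12 fits with 1 array left out. Bcl3 lost its call without untreated A, B or C, LPS once A, B or C, pretreated B or C, or restimulated A or B (adjusted p up to 0.121), and Nfkbib without untreated A, B or C, LPS once B or C, pretreated B, or restimulated B (adjusted p up to 0.0704).

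Nfkbie, the inhibitor IkappaB epsilon, had an interaction above 0 that did not pass the test. Its intensities were 737, 621 and 533 on untreated arrays and 2575, 3346 and 3378 after LPS once. On pretreated arrays they were 45.2, 230.1 and 181 and on restimulated arrays 1594, 1978 and 1585. Pretreated cells were below untreated cells on every array, most of all in letter A, and both stimulated groups were high. The pretreatment effect was -2.16 ± 0.39, the responses were 2.27 and 3.59, and the interaction was 1.32 ± 0.56 (limma adjusted p = 0.243), with an interval of 0.034 to 2.60. Nfkbiz, an inducible nuclear relative looked up after the values were seen, had an interaction of 0.44, not called.

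Negative regulators of the pathway were mixed, with 5 of 28 below 0 and 1 above it, a median of -0.47, with 1 below 0 without untreated B, 2 without untreated A, untreated C, LPS once B, LPS once C or pretreated C, and 3 without restimulated A. Dusp2, a phosphatase of MAP kinases, went from 5.13 to 1.42, an interaction of -3.71 ± 0.39 (limma adjusted p = 0.00402). Cish, an inhibitor of cytokine receptors, had an interaction of -2.90, and lost its call without untreated B or C (adjusted p up to 0.0544). Socs3, its relative, stayed strongly induced (5.66 and 3.58), and its interaction of -2.08 ± 0.43 (limma adjusted p = 0.0364) lost its call without untreated A, B or C, LPS once A, B or C, pretreated C, or restimulated A or B (adjusted p up to 0.106). Inpp5d, the lipid phosphatase SHIP1, fell in the first response (-3.27) and had a second response of -0.79, an interaction of 2.48 ± 0.38 (limma adjusted p = 0.0141). The other members below 0 were Zc3h12a, an RNase that degrades inflammatory mRNA, and Peli1, a ubiquitin ligase, the latter named after the values were seen. Zc3h12a kept its call in 1 of 12 fits with 1 array left out and lost it without restimulated C.

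Tnfaip3, which encodes the ubiquitin-editing enzyme A20, had responses of 3.91 and 3.06 and an interval of the interaction of -2.11 to 0.42. Irak3, which restrains the kinases downstream of MyD88, had 2.25 and 1.25, with -1.73 to -0.26. Zc3h12c, an RNase-like regulator of inflammation, had 3.55 and 3.21, with -1.49 to 0.81. Each interval reaches past a 2-fold smaller second response. Without pretreated B the estimate for Zc3h12c turned to 0.087.

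Transcription factors were again mixed. Ets2, an ETS factor, had intensities of 551, 646 and 339.5 on untreated arrays and 2607, 4642 and 3968 after LPS once. It had 133, 460.2 and 141 on pretreated arrays and 2988, 2549 and 2884 after restimulation. Both stimulated groups were above both others, and the restimulated arrays overlapped those of LPS once. The interaction was 0.82 ± 0.52 (limma adjusted p = 0.454), with an interval of -0.37 to 2.01. It was 2.12, -0.39 and 0.72 in letters A, B and C.

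Of 30 immediate-early and AP-1 factors 5 were below 0 and 0 above it, with 10 below and 2 above 0 at an unadjusted p under 0.05 by limma. The median over all 3 letters was -0.25. The median was 0.18, -0.36 and -0.69 in letters A, B and C. Ier2, an immediate-early gene, went from 1.64 to -0.57 (interaction -2.22 ± 0.19, limma adjusted p = 0.0015), Batf, an AP-1 factor of immune cells, from 3.29 to 1.14, and Klf7, a Krüppel-like factor, from 3.52 to 1.48. Ier3 was the other called member that the naming rule takes, with -1.32, lost without untreated B, LPS once C, pretreated B or C, or restimulated A or B (adjusted p up to 0.0691), and Klf6 was the fifth. Among 19 interferon regulatory factors and STATs, 5 were below 0 and 1, Stat6, above it. Stat5a, activated by cytokine receptors, had 2.88 and -0.43, an interaction of -3.31 ± 0.21 (limma adjusted p = 0.000341), and Stat3, which carries the signal of interleukins 6 and 10, had -1.24, with probe sets from -1.997 to -0.14. The other members below 0 were Irf1, Irf9 and the kinase gene Jak2, which kept its call in 4 of 12 fits with 1 array left out. Without restimulated C the lower count was 4, and Irf9 was the member that lost its call. The count above 0, which is Stat6 on all arrays, was 0 in 4 of the 12 fits. The lower count was 2 without pretreated C, restimulated B, untreated B or untreated C, and 3 without LPS once C, pretreated A, pretreated B or untreated A.

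Interferon-induced genes held the largest share of calls among the lists, 20 of 34 below 0 and 0 above it, with 30 and 0 at an unadjusted p under 0.05 by limma. In the first response 30 of the 34 rose, against 4.18% of all genes. In the second 0 were called, against 0.775% higher and 1.48% lower over all genes. The median of the second response was -0.052, and 0.33, -0.0265 and -0.53 in letters A, B and C. In pretreated cells 14 were already higher, against 0.55% of all genes. The median interaction was -2.37 (-2.11 without restimulated C), and -2.88, -1.43 and -2.89 in letters A, B and C. The count of calls was 19 without restimulated C, 8 without LPS once C, pretreated B or untreated C, 9 without restimulated B, and 12 without pretreated A or pretreated C.

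Gbp2, a guanylate-binding protein that attacks pathogen vacuoles, had intensities of 133, 285 and 73.2 on untreated arrays and 6518, 3607 and 3743 after LPS once. It had 1687, 1871 and 1116 on pretreated arrays and 2227, 1796 and 838 after restimulation. Pretreated and restimulated arrays overlapped and lay between untreated cells and LPS once. The interaction was -4.83 ± 0.47 (limma adjusted p = 0.00296), in which a pretreatment effect of 3.27 and a level after LPS of -1.56 were both called.

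Mx1, an antiviral GTPase, Oasl1, which limits translation of Irf7, and Cmpk2, a nucleotide kinase, had interactions of -4.67, -4.92 and -4.49. Without restimulated C these were -4.135, -4.287 and -3.975. The second responses of the 3 genes were 0.33, 0.26 and 0.22, and 0.86, 0.90 and 0.73 without that array. Their errors were larger, with -5.25, -3.57 and -5.95 for Oasl1 in letters A, B and C. Mx1 lost its call without untreated C, LPS once C, pretreated A, B or C, or restimulated B (adjusted p up to 0.0651). Oasl1 lost it without untreated C, LPS once C, pretreated B, or restimulated B (adjusted p up to 0.0612), and Cmpk2 without LPS once C or pretreated B (adjusted p up to 0.0589). Irf1, a transcription factor of the interferon system, had an interaction of -1.98, and lost its call without untreated A, B or C, LPS once B, pretreated A, B or C, or restimulated B (adjusted p up to 0.0896).

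**Figure D5:**
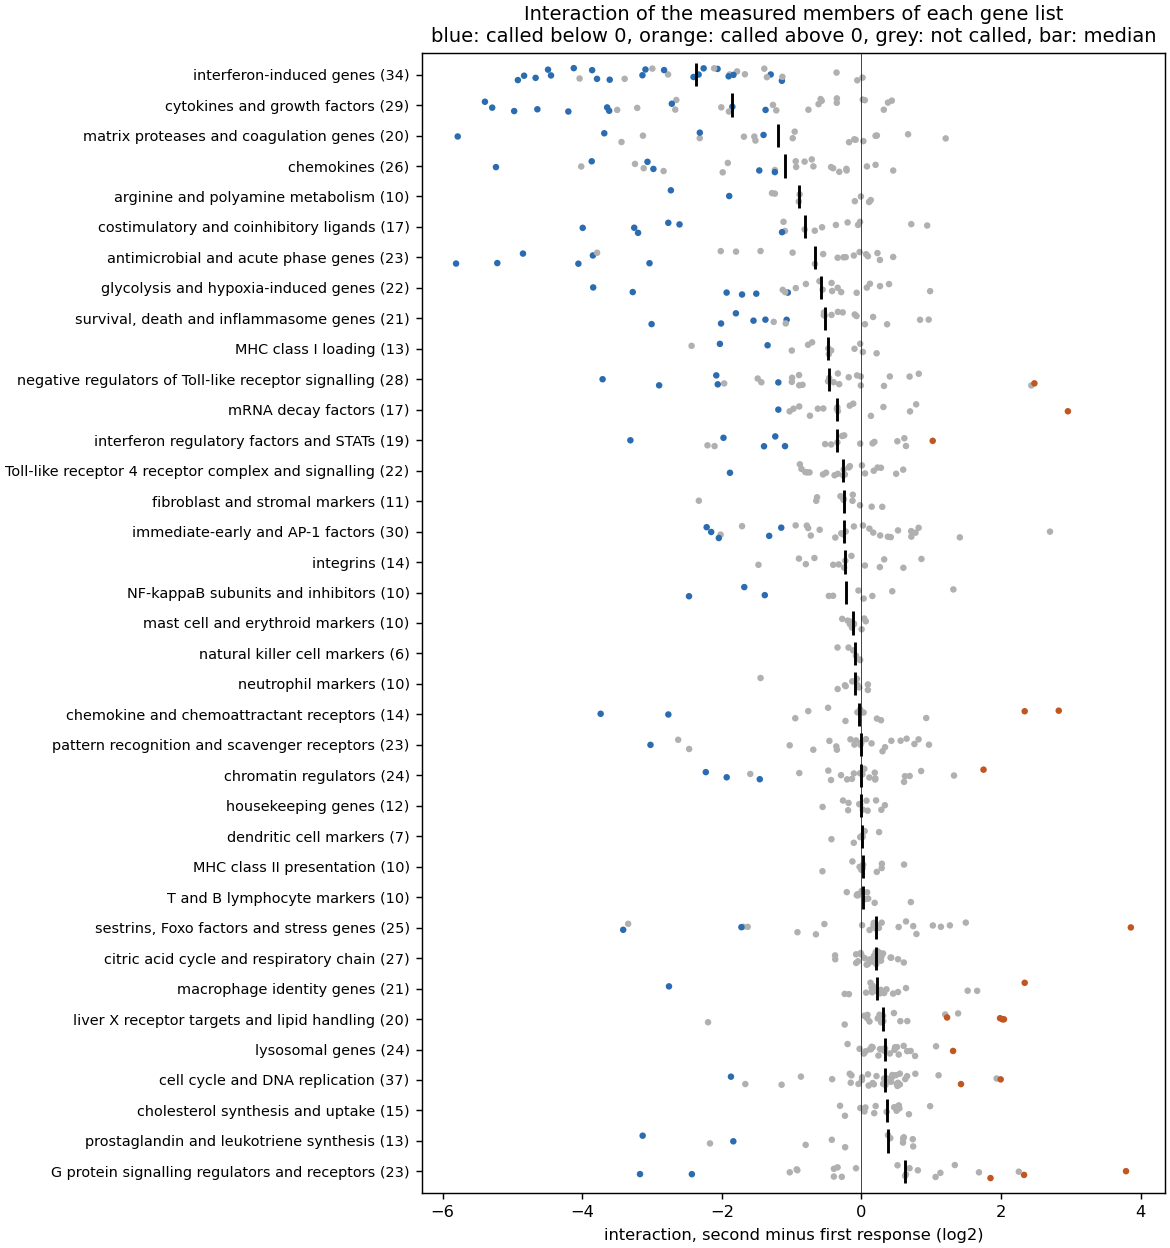
The interaction of each measured member of 37 gene lists (x axis, log2 units, a point per gene), with the number of measured genes in brackets and the median as a bar. Interferon-induced genes have the lowest median, -2.37, and lists of other cell types and housekeeping genes lie around 0 with 0 called members. In lists this short, 0 calls is near the shares of 1.43% above and 1.86% below 0 over all genes.

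Surface molecules that stimulate or inhibit T cells were below 0 in 6 of 17 and above it in 0, with a median of -0.81. Cd40, the receptor through which T cells activate macrophages, had 8219, 7997 and 8799 after LPS once and 1181, 428 and 376 after restimulation, with 164, 129 and 97.8 on untreated and 159, 172 and 115 on pretreated arrays. Restimulated arrays were above all unstimulated and below all arrays of LPS once. The interaction was -3.99 ± 0.43 (limma adjusted p = 0.00411). Cd274, the coinhibitory ligand PD-L1, went from 3.72 to 0.47 (interaction -3.26), Slamf1, a self-ligand receptor, from 3.37 to 0.17 (-3.20), and Vcam1, an adhesion molecule, from 2.80 to 0.036 (-2.77). The probe sets of Slamf1 ranged from -3.20 to -1.26, and 1 of 3 was called when tested singly. At an unadjusted p under 0.05, limma placed 7 of the 17 below and 1 above 0. Fcgr2b, the inhibitory receptor of antibodies, had an interaction of -2.76 and was higher in pretreated cells by 2.08, and its probe sets ranged from -3.12 to 0.39.

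Of 13 genes of prostaglandin and leukotriene synthesis 2, Ptges and Pla2g4a, were below 0 and 0 above it, with a median of 0.38, and 3 were below and 5 above 0 at an unadjusted p under 0.05 by limma. In the first response 3 rose and 2 fell, in the second 2 rose and 1 fell, and 2 were higher and 1 lower in pretreated cells. Ptges, which makes prostaglandin E2, was higher in pretreated cells by 3.01 and still rose by 2.38 in the second response, with an interaction of -3.13 ± 0.56 (limma adjusted p = 0.0236), lost without untreated B or C, LPS once A, B or C, pretreated C, or restimulated B (adjusted p up to 0.0748). Its probe sets ranged from -3.13 to -1.48, and 1 of 3 was called when tested singly. Ptgs2, cyclooxygenase 2, had 5.43 and 3.26, with an interval of the interaction of -4.500 to 0.16, and Pla2g4a, which frees the substrate of both, had -1.84, called. Nos2, inducible nitric oxide synthase, was called in neither response (0.84 and 0.18).

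Glycolysis and hypoxia-induced genes were below 0 in 6 of 22 and above it in 0, with a median of -0.58 and 3 calls without untreated B. At an unadjusted p under 0.05 by limma, 13 were below and 1 above 0. Pfkfb3, which raises glycolytic flux, had intensities of 6795, 6655 and 4712 after LPS once and 884, 689 and 539 after restimulation, against 289.6, 312 and 378 on untreated and 452, 678 and 574 on pretreated arrays. LPS once stood far above the other groups, and restimulated arrays overlapped pretreated ones. The interaction was -3.84 ± 0.32 (limma adjusted p = 0.00133). The 2 probe sets of Pfkfb3 ranged from -3.84 to -1.70, and 1 of them was called when tested singly. The interaction of the hormone adrenomedullin, Adm, was -3.28 and that of Ndrg1, a hypoxia-induced gene, -1.71. Of 27 citric acid cycle and respiratory chain genes limma called 0, with 1 below and 4 above 0 at an unadjusted p under 0.05.

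Proteases and coagulation genes had 4 of 20 below 0 and 0 above it, a median of -1.19. At an unadjusted p under 0.05 by limma, 10 were below and 0 above 0. Plat, the plasminogen activator of tissue type, had -3.69 ± 0.52 (limma adjusted p = 0.0112), though its probe sets ranged from -3.69 to -0.077, and F3, tissue factor, which starts coagulation, had -2.32 ± 0.19 (limma adjusted p = 0.00133). Mmp13 and the membrane-bound protease gene Mmp14 were the other members below 0, and Mmp14 kept its call in 6 of 12 fits with 1 array left out. Of the survival and death genes, 6 of 21 were below 0, with 1 without untreated B or untreated C, 2 without untreated A, LPS once B, LPS once C or pretreated C, and 3 without pretreated B or restimulated B. Gadd45b, a stress response gene, went from 3.73 to 0.72, with probe sets from -3.01 to -0.038. Ddit4, an inhibitor of the growth kinase mTOR complex, had -3.41 ± 0.50 (limma adjusted p = 0.0124), and Sod2, mitochondrial superoxide dismutase, which was higher in pretreated cells by 1.51, had -1.72.

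Genes that LPS lowers made up most of the interactions above 0, with 253 of the 260 called lower in the first response. By component, 186 of the 260 had a higher level after LPS and no called pretreatment effect, 59 had neither called, and 12 were lower in pretreated cells with no called difference after LPS. Pparg, the lipid-sensing nuclear receptor, and Cd207, langerin, were lower both beforehand and after LPS, and Sirpb1a, a signal regulatory protein, was higher in both. Cd207 and Sirpb1a were named for this after the values were seen, and each kept its call in 3 of 12 fits with 1 array left out. The pretreatment effect was the larger component in 25 of the 260.

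Sesn1, a stress-induced inhibitor of mTOR complex signalling, had intensities of 3687, 2563 and 3249 on untreated arrays and 77, 51.4 and 61.2 after LPS once. It had 3917, 1250.4 and 2824 on pretreated arrays and 1487, 522 and 815 after restimulation. Each restimulated array was below the pretreated array of the same letter and far above every array of LPS once. It fell by 5.32 and by 1.46 in the responses, an interaction of 3.86 ± 0.34 (SE, n = 3 arrays a group, limma adjusted p = 0.00178), and probe sets ranged from 0.54 to 3.86.

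Gpr65, a proton-sensing receptor, had 1533, 1394 and 1464 on untreated arrays and 116, 33.7 and 80.2 after LPS once. It had 1408, 640.0 and 1607 on pretreated arrays and 1174, 688 and 921 after restimulation. Pretreated and restimulated arrays overlapped, and only LPS once was low. The interaction was 3.79 ± 0.35 (limma adjusted p = 0.00195), with 1 probe set.

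Etv5, an ETS factor, had responses whose estimates differed in sign. Its intensities were 463, 117 and 248 on untreated arrays and 98.2, 62.8 and 67.3 after LPS once. They were 69.7, 64.5 and 63.3 on pretreated arrays and 622, 141 and 156 after restimulation. Pretreated cells were as low as cells after LPS once, and restimulated cells overlapped the untreated ones. It fell in the first response (-1.496), and its second response of 1.66 ± 0.38 was not called (limma adjusted p = 0.0518). The interaction was 3.16 ± 0.54 (limma adjusted p = 0.0204), lost without untreated A or C or LPS once C (adjusted p up to 0.0679), and its probe sets ranged from 0.65 to 3.16.

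Rgs2, a regulator of G protein signalling, fell both times (-5.57 and -3.24), with an interaction of 2.33 ± 0.34 (limma adjusted p = 0.0124), and its probe sets ranged from -0.0065 to 2.33. N4bp2l1, Susd3 and Tmem86a, a lysoplasmalogenase, had interactions of 2.87, 2.77 and 2.66, each called in 12 of 12 fits with 1 array left out, and the probe sets of Susd3 ranged from -0.24 to 2.77 and those of N4bp2l1 from 1.00 to 2.87. Cytip, which regulates leukocyte adhesion, had a pretreatment effect of -3.13 and an interaction of 2.81, lost without untreated A or B, LPS once C, pretreated B, or restimulated B (adjusted p up to 0.0673). Zfp36l2, which promotes mRNA decay, had 2.96, with probe sets from -0.041 to 2.96, and lost its call without untreated B or C, pretreated A or B, or restimulated A or B (adjusted p up to 0.0759).

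Lipid genes were the list with the highest share above 0, at 4 of 20 and 0 below, with a median of 0.31 (0.55 without restimulated C), 7 above and 1 below 0 at an unadjusted p under 0.05 by limma. Besides Nr1h3 these were Fads1, a fatty acid desaturase (1.99 ± 0.24, limma adjusted p = 0.00556), Pparg (2.04 ± 0.27, limma adjusted p = 0.00876) and Cpt1a, which brings fatty acids into mitochondria (1.23 ± 0.25, limma adjusted p = 0.0331). Fads1 had a first response of -2.86, and its second response was -0.87, and its probe sets ranged from 0.17 to 1.99. Pparg had a second response of -0.059 after a pretreatment effect of -3.10. Cpt1a lost its call without untreated A, B or C, LPS once B or C, pretreated A or B, or restimulated A or B (adjusted p up to 0.0975). Of 15 cholesterol genes limma called 0, with 0 below and 1 above 0 at an unadjusted p under 0.05.

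Of 37 cell cycle genes 2 were above 0 and 1 below. Gmnn, geminin, an inhibitor of replication licensing, fell in both responses (-3.43 and -1.44), an interaction of 1.995 ± 0.31 (limma adjusted p = 0.0154), and Cdkn1a, the inhibitor p21, had -1.87, lost without untreated A or C, pretreated A or B, or restimulated B (adjusted p up to 0.0622). Tk1, thymidine kinase, was called at 1.43 only narrowly, with calls in 1 of 12 fits with 1 array left out (adjusted p up to 0.125). Among 24 chromatin regulators, Hdac5, a histone deacetylase, had 1.75 ± 0.26 (limma adjusted p = 0.0125), while the histone demethylase gene Kdm6b had -2.23, called in 2 of 12 such fits (adjusted p up to 0.0746), and its relative Kdm4a and the DNA demethylase gene Tet2 were also below 0, called in 7 of 12 and 5 of 12. The 3 calls below 0 in this list fell to 0 without LPS once C or any untreated array, and to 1 without pretreated A, pretreated C or restimulated B. Neu1, a lysosomal sialidase, had 1.31 ± 0.20 (limma adjusted p = 0.0134), the only call among 24 lysosomal genes, and its probe sets ranged from -0.044 to 1.31.

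Markers of other cells were measured on the same arrays. Of 54 markers of lymphocytes, natural killer cells, neutrophils, dendritic cells, mast and erythroid cells and fibroblasts, limma called 0 in the interaction, with 3 below and 0 above 0 at an unadjusted p under 0.05. Over all genes 1.43% were called above and 1.86% below 0, so 0 of 54 is near those shares. All measured natural killer, dendritic, and mast and erythroid cell markers were under an intensity of 100 on every array, as were 8 of 10 lymphocyte markers. Changes at such dim signal are understated. The fibroblast markers varied by replicate letter, and their summed intensity ran from 681 to 13360 in untreated cells, 1289 to 10960 after LPS once, 610 to 7824 in pretreated and 600 to 7193 in restimulated cells. Acta2, smooth muscle actin, chosen after the values were seen, had 4469.8, 4980.1 and 352 on untreated and 1596, 1793 and 245 on restimulated arrays A, B and C, and Col1a1, a collagen, had 1033, 1991 and 42.3 and 507, 1164 and 39.7. Both were lowest in letter C. The interaction of Il10 was -5.12, -5.39 and -5.68 in letters A, B and C. For Mmp13 it was -5.87, -5.32 and -6.17, and for Saa3 -6.09, -5.86 and -5.48. The part of the fibroblast markers in these and other results was not tested. Neutrophil markers, with S100a8 the brightest, had sums of 575 to 4405 in untreated cells and of 2361 to 5654 in the other groups, 5 of the 10 being under 100 on every array, and their part in the results was not tested. Of 12 housekeeping genes limma called 0, also near the shares over all genes, with 1 below and 2 above 0 at an unadjusted p under 0.05, and a median of 0.00062 (0.077 without restimulated C).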

How the data were processed

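The authors deposited linear array intensities, 1 per probe set and array. Their program, background correction and scaling were not given in the sources used here. That they are linear was judged from their range. Per the labels' protocols, RNA was isolated with TriFast and labelled by the Affymetrix standard procedure. Each of the 12 columns matched 1 sample's labels, and the number of arrays limits the precision.

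Of 45101 probe sets, 64 were controls, 34945 had 1 symbol in the platform annotation, 932 had several and 9160 none. For 34741 of them the symbol was replaced by that of the same Entrez identifier in RefSeq's gene table (GRCm38.p6), and 204 kept the platform's symbol. The probe set with the highest mean stood for each gene, which gave 18193 genes, 9010 of them with several probe sets. Values were transformed as log2(intensity + 16) without further normalization. Changes of dim genes are therefore understated.

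The 4 group means and the replicate letter were fitted to all 12 arrays with limma 3.58.1 in R 4.3.3, with 6 residual and 1.94 prior degrees of freedom. Genes were called where the p-value, adjusted by Benjamini-Hochberg over all genes tested, was under 0.05 and the difference at least 2-fold. The procedure was tested on simulated data. The letters pair the arrays: deviations from group means had r from 0.25 to 0.656 in 18 pairs of arrays with the same letter and from -0.482 to 0.013 in 36 pairs with different letters. Whether a letter is a mouse, a culture or a day is not stated.

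The members and the 37 gene lists were chosen with earlier results of these data known. Named genes were the 12 most negative and 12 most positive called interactions, up to 4 called members per list (or the 2 widest where fewer than 2 were called), the 10 uncalled induced genes with the highest second response, the 10 most positive called interactions among genes called higher in the second response, the 10 most negative among genes called lower in it, up to 10 called genes whose first and second responses were called with opposite signs, and a short list of cytokine, enzyme and receptor genes taken in any case, such as Tnf, Il6 and Socs3. Not all are reported. Genes named outside this rule, after their values were seen, were Cfb, Ccl4, Cd207, Sirpb1a, Gdf3, Gspt2, Mid1ip1, Tle1, Nfkbiz, Peli1, Klf6, Irf9, Stat6, Acta2, Col1a1, Csf1r and Lyz2. Alternatives concerned the block, the normalization, array weights, the value added before the log, dim genes, probe sets, moderation and each array left out.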

Additional observations from a re-analysis of the deposited data

Results flagged for a closer look

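The first and the second response to LPS differed by the test of the difference itself in 260 genes with an interaction above 0 and 338 with one below 0, as described above.

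Probe sets outside the comparison, which used those with 1 symbol, also carried such differences when fitted in the same way. Among probe sets with no symbol 27 were called above 0 and 45 below 0, and among probe sets with several symbols 4 were above and 18 below. They were given no gene name.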

How the results depend on the processing

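The counts of genes with an interaction above and below 0, 260 and 338, stayed within 1.5 times with no replicate block (223 and 262), with the 3 within-letter interactions as paired values (214 and 301), after quantile normalization (319 and 441), without probe sets of possibly shared targets (244 and 330), with an intensity trend and robust moderation (305 and 422), with 1 in place of 16 added before the log (364 and 416) and among genes of intensity 100 or more (375 and 488). The count above 0 was 631 with array weights, 147 with the mean of all probe sets and 140 with 64 added before the log, and the cause was not tested. The matching counts below 0 were 435, 280 and 264. With 1 array left out the count above 0 lay between 79 and 586 and the count below 0 between 182 and 337, and a fit then rested on 2 arrays in that group.

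Of the 92 called genes whose interactions are reported, 54 kept their call with each of the 12 arrays left out in turn. The other settings left 71 called with no replicate block, 78 with paired values, 80 with 64 added, 81 with the mean of all probe sets, 88 after quantile normalization, 90 with array weights, 90 without probe sets of possibly shared targets and 92 with a trend or with 1 added, and under those settings 0 of the 92 turned in sign. Of 18 uncalled genes, estimates turned in sign with 1 array left out for Ccl3 (range -0.43 to 0.14), Cxcl2 (-1.97 to 0.11) and Zc3h12c (-0.67 to 0.087). The 34 interferon-induced genes held 11 calls below 0 with no replicate block and 29 after quantile normalization against 20, and negative regulators 3 and 8 against 5. The median interaction of all genes was -0.016, and 0.013 after quantile normalization. Signal close to the brightest on the arrays limits Saa3 and Ccl5, and also Ccl3 after LPS once. Dim signal limits Il12b and Il10 on unstimulated arrays.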
